A study of Homo sapiens with 115 samples.

Results

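The genes described here are 10 genes of non-homologous end joining (NHEJ): XRCC5, XRCC6, PRKDC, DCLRE1C, LIG4, XRCC4, NHEJ1, PAXX, TP53BP1 and RIF1. They were taken by gene name, with no threshold on a measured value, from a table of raw read counts with 43386 gene entries in single cells. All 10 had an entry, and all 10 passed the filter on low counts that left 19894 genes for testing. The cells were HCT116, a human colorectal carcinoma line, in a p53−/− form and a p53+/+ form, each represented by 1 clone. Cells were picked by aspiration under a microscope at 5 stages around an 8 Gy X-ray dose. Unirradiated cells [N] were taken at day 0, pre-budding radiation-tolerant persister (RTP) cells [P], which are enlarged cells that outlive the dose, at day 7, budding RTP cells [B] and the progenies [S] budded from such giant cells at day 10, and repopulated cells [R] at day 30. The labels write the 8 Gy dose beside [N] as well, whereas the study describes these cells as untreated, and they were taken here as unirradiated. For [B] and [S], day 10 is that of the labels, whereas a figure legend of the study gives day 9. There were 7 p53−/− and 6 p53+/+ cells in [N], 11 and 6 in [P], 8 and 28 in [B], 9 and 21 in [S], and 8 and 11 in [R]. These numbers follow the genotype labels, and the study states another division of the cells between the lines, which could not be traced to single cells.

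NHEJ rejoins the ends of a DNA double strand break without a homologous template and can act throughout the cell cycle. The Ku heterodimer of XRCC6 (Ku70) and XRCC5 (Ku80) grips the broken end and recruits PRKDC, the catalytic subunit of the DNA-dependent protein kinase. DCLRE1C (Artemis) is the nuclease that opens hairpins and trims ends, and DNA ligase IV (LIG4) with its partner XRCC4 seals the break, helped by the XRCC4-like factors NHEJ1 (XLF) and PAXX. TP53BP1 and RIF1 bind the chromatin beside a break and hold back the end resection that commits a break to homologous recombination (HR). X-rays cut both strands of DNA directly, and NHEJ is known as the main repair route for such breaks in human cells.

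Total counts per cell lay between 4056329 and 100173192, with a median of 34238237, and the median number of genes detected per cell was 14746 for [N], 16333 for [P], 15742 for [B], 13281.5 for [S] and 13754 for [R]. The epithelial markers EPCAM, KRT8, KRT18, KRT19, CLDN4 and CLDN7 had counts in every cell, and CDH1 in most. Of 11 markers of blood, stromal and endothelial cells, CD3E had no count in any cell, PTPRC and COL1A2 had counts in 2 cells each, and CD68 and COL1A1 had low counts in most cells (medians of 8.12 and 2.50 CPM, that is, counts scaled to the library total). CDKN1A, a cell cycle inhibitor, was at 545 CPM or less in irradiated p53−/− sums and at 972 to 2521 CPM in irradiated p53+/+ sums. Single cells of the lines overlapped. In [B], p53−/− cells ran from 36.5 to 2146 CPM, with 1 cell holding 70.2% of the counts, and p53+/+ cells from 145 to 5414 CPM. CDKN1A thus checks the lines as sums and not cell by cell. Single cells that share a clone are no independent replicates. The counts of all cells with the same stage and line were therefore added up, and stages were compared between the resulting 10 sums, 2 per stage (1 from each line). P-values between stages therefore measure the spread between the 2 clones. For the lines, all sums of a line come from 1 clone. Those p-values measure how the line difference varies between sums, and p53 status and clone cannot be told apart. Cell names begin with a prefix that the labels do not explain. [N] shares a prefix with [P] only and [R] shares none. In every comparison of [R], and of [B] or [S] with [N], prefix and stage therefore cannot be told apart. The same holds for [B] against [P] in p53+/+ cells, whereas p53−/− cells of these stages share prefixes 1118 and 1206. In [R] each line also has a prefix of its own, so a line difference there cannot be told apart from one of prefix. In [P] all p53+/+ cells share a prefix, whereas most p53−/− cells have prefixes without p53+/+ cells in [P]. Line and prefix are thus only partly separable in [P].

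Per kilobase of transcript (lengths of the representative GENCODE v44 transcripts), the Ku subunits had the highest median levels of the members at every stage. The median cell held 615 CPM per kb of XRCC6 at stage [N], 331 at [P], 292 at [B], 305 at [S] and 568.4 at [R]. For XRCC5 these levels were 221 at [N], 159.9 at [P], 125.5 at [B], 124.7 at [S] and 267 at [R]. PAXX followed with medians of 53.5 to 73.4 CPM per kb over the stages, then XRCC4 with 21.8 to 52.8 and PRKDC with 8.91 to 16.03. This order is one of medians. The ranges of PAXX and XRCC4 cells overlapped at every stage, and in [B] the highest PAXX cell (278 CPM per kb) was above the highest XRCC5 cell (244). The other 5 members, LIG4, RIF1, DCLRE1C, NHEJ1 and TP53BP1, had medians between 1.06 and 5.16 CPM per kb, and their ranges over cells overlapped at every stage, so that no order among them holds beyond the spread. Lengths of the transcripts present in these cells were not measured, so levels of different genes are comparable only as far as the representative transcript holds.

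**Figure D1:**
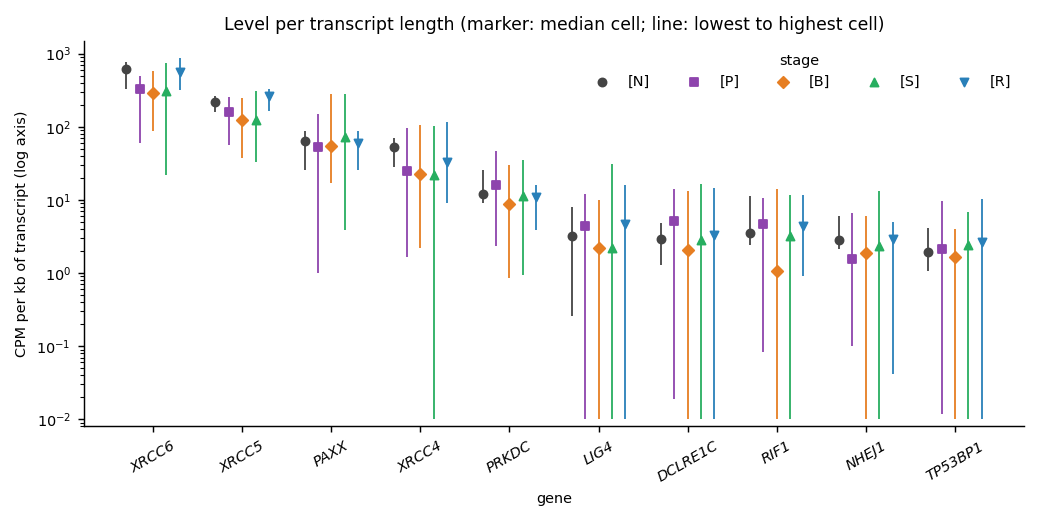
CPM per kb of transcript (log axis) for the 10 NHEJ genes at the 5 stages, ordered by their mean level; the marker is the median cell and the line spans the lowest to the highest cell, with lines that end at 0.01 reaching cells with no count. The medians of XRCC6 and XRCC5 stand above those of the other members at each stage, although single cells overlap at some stages. LIG4, DCLRE1C, RIF1, NHEJ1 and TP53BP1 overlap.

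The Ku subunits were lower in budding cells and higher again in repopulated cells, in both lines, although neither passed the test after adjustment with edgeR. XRCC6 (chr22:41621163-41664048 on GRCh38, 13 exons) had 563 and 670.1 CPM in the p53−/− and p53+/+ sums of [B], against 1401 and 1307 CPM in those of [N]. In cells, the lowest, median and highest were 185, 620.0 and 1228 CPM in [B] and 707, 1304 and 1606 CPM in [N]. All 36 [B] cells were below the median of the [N] cells and 23 were below the lowest [N] cell. The log2 fold change was -1.14 (standard error 0.32, p = 0.00487, adjusted p = 0.112, edgeR). XRCC5 (chr2:216107464-216206303, 21 exons) had 359 and 453 CPM in the [B] sums, against 782 and 748 CPM in the [N] sums. Of the 36 [B] cells, 28 were below the lowest [N] cell, and the log2 fold change was -0.92 (standard error 0.29, p = 0.0109, adjusted p = 0.150, edgeR). The difference from [N] was already present at day 7 for XRCC6, with 617 and 846 CPM in the [P] sums (log2 fold change -0.89, standard error 0.31, adjusted p = 0.347, edgeR), where prefix 1115 alone gave -0.76 in p53−/− cells (3 [P] and 2 [N] cells) and -0.63 in p53+/+ cells (6 [P] cells and a single [N] cell). For XRCC5 the [P] sums held 423 CPM in p53−/− and 661 CPM in p53+/+ cells, so that the lines stood further apart there than at the other stages. In prefix 1115 alone, the 3 p53−/− [P] cells had 386 to 667 CPM and the 6 p53+/+ cells 515 to 852 CPM. The other [P] prefixes held p53−/− cells only.

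In repopulated cells XRCC5 stood at 788 and 858 CPM in the p53−/− and p53+/+ sums, against 359 and 453 CPM in [B] (log2 fold change 1.02, standard error 0.29, p = 0.00602, adjusted p = 0.123, edgeR). The cells of [R] ran from 555 over a median of 901 to 1126 CPM, and those of [B] from 128 over 424 to 826 CPM. None of the 19 [R] cells was below the [B] median and 13 were above the highest [B] cell. XRCC6 had 960.5 and 1418 CPM in the [R] sums, against 563 and 670.1 CPM in [B] (log2 fold change 0.95, standard error 0.31, p = 0.0130, adjusted p = 0.157, edgeR), and 9 of 19 [R] cells were above the highest [B] cell. Against [N], the log2 fold change of XRCC5 in [R] was 0.11, with 0.01 in p53−/− and 0.20 in p53+/+ cells. That of XRCC6 was -0.19, and the lines differed in direction, with -0.54 in p53−/− cells, where the [R] sum stayed below that of [N], and 0.12 in p53+/+ cells. Neither passed the test.

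The 2 subunits were correlated from cell to cell. Over all cells, the Pearson correlation of their log2(CPM + 1) was 0.84, and it was 0.75 after the mean of each stage and line was taken out. Within stages it lay between 0.51 in [R] and 0.83 in [S]. These are descriptions over cells that share a line and an amplification protocol, and other pairs of members reached at most 0.71 within stage and line. The median log2 ratio of XRCC6 to XRCC5 CPM was 0.79 for the [N] cells (SD 0.25, 13 cells), 0.45 for [P], 0.53 for [B], 0.56 for [S] and 0.62 for [R] (SD 0.35, 19 cells). Over the cells of both lines, the ratio spread more widely in the irradiated stages, from -1.32 to 1.29 in [P] and from -1.62 to 1.43 in [S], against 0.28 to 1.29 in [N]. These ranges cover 17, 30 and 13 cells. The lowest ratios came from single cells with 11657 genes detected in [P] and 8713 in [S]. In p53−/− cells alone, the SD in [R] (0.28) was not above that in [N] (0.30).

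**Figure D2:**
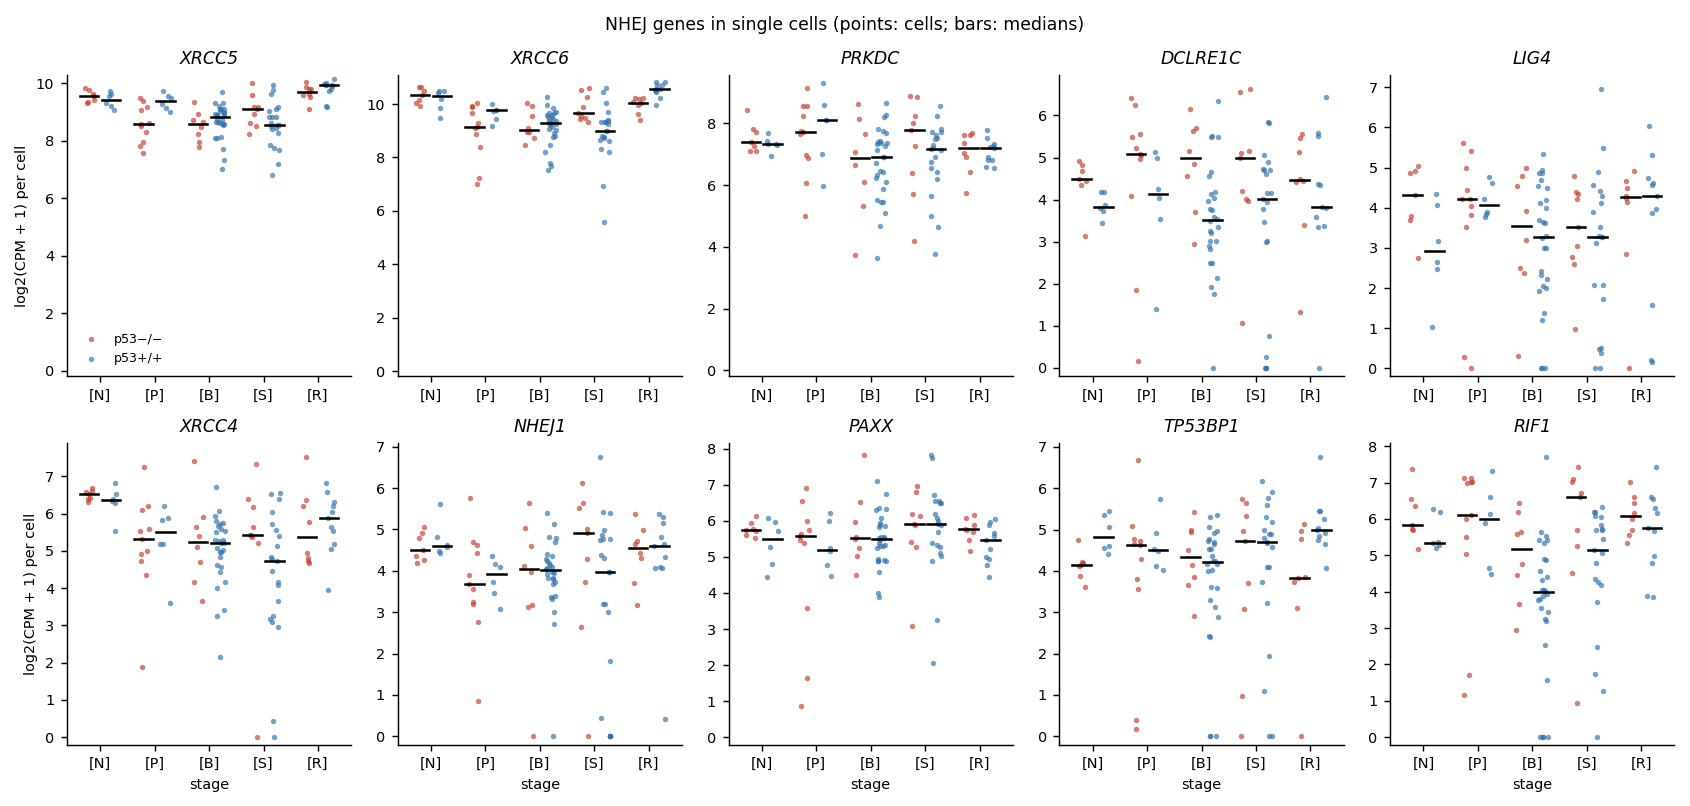
Level of each NHEJ gene in each cell, as log2(CPM + 1), at the stages [N], [P], [B], [S] and [R], with p53−/− cells in red at the left and p53+/+ cells in blue at the right of each stage; bars are medians. XRCC5 and XRCC6 have their lowest medians in [B] in p53−/− cells and in [S] in p53+/+ cells, and lie highest in [N] and [R] in both lines, RIF1 dips in [B], and PAXX keeps a similar median throughout.

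PRKDC (chr8:47773111-47960178, 86 exons) followed another course. Its sums held 225 and 281 CPM in [P], against 200.2 and 189 CPM in [N], where the log2 fold change was 0.38 (standard error 0.28, adjusted p = 0.632, edgeR). In [B] both sums held 121 CPM, below both [P] sums (log2 fold change -1.06, standard error 0.28, p = 0.00337, adjusted p = 0.699, edgeR) and below both [N] sums (log2 fold change -0.69, standard error 0.28, p = 0.0326, adjusted p = 0.224, edgeR). Against the [P] median, 29 of 36 [B] cells were lower. In p53+/+ cells, [B] and [P] share no prefix. In p53−/− cells, the log2 fold change of [B] over [P] was -1.64 in prefix 1118 but 1.21 in prefix 1206. Each of these sets 1 [B] cell against 4 [P] cells. In [S] the sums held 222 and 148 CPM and in [R] 132 and 128 CPM, and both [R] sums lay only slightly above the [B] sums (log2 fold change 0.10, standard error 0.28, adjusted p = 0.902, edgeR). That the changes of PRKDC and Ku differ was not tested.

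DCLRE1C (chr10:14897359-14954432, 14 exons), the Artemis nuclease that PRKDC activates, had its smallest p between the lines and not between stages. Its sums in p53−/− and p53+/+ cells held 23.4 and 15.4 CPM at [N], 33.7 and 20.02 at [P], 29.6 and 12.8 at [B], 36.0 and 17.6 at [S], and 23.2 and 23.4 at [R]. The p53−/− sum was the higher at 4 of 5 stages, and the lines were level in [R]. With the stage as a block the log2 fold change of p53−/− over p53+/+ was 0.72 (standard error 0.22, p = 0.00901, adjusted p = 0.176, edgeR). DESeq2 on the same sums called this difference (log2 fold change 0.72, adjusted p = 0.0384), as did edgeR on 40 sums per name prefix (log2 fold change 1.05, adjusted p = 0.0395). These tests take sums of 1 clone per line as replicates, so they do not separate p53 status from clone. Between stages no p under 0.05 was found for DCLRE1C in any of the 8 comparisons. It was at 0 in 1 [B], 3 [S] and 1 [R] cell, all p53+/+.

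Of the ligation factors, XRCC4 and NHEJ1 had lower sums in [P] and [B] than in [N] in both lines. XRCC4 (chr5:83077498-83353787, 8 exons), the scaffold that stabilizes ligase IV, had 48.5 and 39.5 CPM in the [P] sums and 44.6 and 36.8 CPM in the [B] sums, against 91.2 and 90.9 CPM in the [N] sums. The [N] cells were tight, with a median of 84.6 CPM and a lowest cell of 45.8 CPM, whereas the [B] cells ran from 3.48 to 169.8 around 36.0 CPM, and 34 of 36 lay below the [N] median. The log2 fold change of [B] was -1.16 (standard error 0.28, p = 0.00202, adjusted p = 0.0853, edgeR), and it passed the test when the cell line was added as a block (log2 fold change -1.17, adjusted p = 0.0399, edgeR). For [P] it was -1.05 (standard error 0.28, p = 0.00383, adjusted p = 0.286, edgeR). XRCC4 was also below [N] in [S] (log2 fold change -0.73, p = 0.0251, adjusted p = 0.316, edgeR) and in [R] (-0.72, p = 0.0271, adjusted p = 0.563, edgeR), with sums of 54.8 and 55.6 CPM in [R]. In both sums, XRCC4 was thus lower than in [N] at each of the 4 later stages, though all 4 comparisons share the [N] sums.

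NHEJ1 (chr2:219069355-219160869, 8 exons), which bridges XRCC4 filaments across the break, had 15.8 and 13.97 CPM in [P] and 16.2 and 18.8 CPM in [B], against 25.7 and 34.1 CPM in [N]. Of the 36 [B] cells, 24 were below the lowest [N] cell. The log2 fold change was -1.01 in [P] (standard error 0.31, p = 0.00907, adjusted p = 0.315, edgeR) and -0.77 in [B] (standard error 0.31, p = 0.0323, adjusted p = 0.223, edgeR). LIG4 (chr13:108207439-108218368, 3 exons), the ligase itself, was low at every stage, with sums between 11.9 and 21.04 CPM, and had no p under 0.05 in any comparison. It was at 0 in 7 cells, none of them from [N].

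PAXX (chr9:136992422-136993984, 7 exons), which binds Ku and stabilizes its assembly on the break, had sums between 39.9 and 82.6 CPM and no course in common with Ku. Its sums in p53−/− and p53+/+ cells were 54.3 and 48.7 CPM at [N], 47.1 and 47.7 at [P], 58.7 and 47.3 at [B], 64.6 and 82.6 at [S], and 51.3 and 39.9 at [R]. PAXX had counts in every cell, and the [B] sums differed from those of [N] by 0.04 on the log2 scale (standard error 0.28, adjusted p = 0.958, edgeR). Its largest difference was between repopulated cells and progenies. In [R] it was lower than in [S], and the log2 fold change was -0.69 (standard error 0.28, p = 0.0321, adjusted p = 0.284, edgeR). The cells of [R] spanned 20.8 to 70.8 CPM around 49.2, inside the span of the [S] cells from 3.18 to 224 around 59.3 CPM.

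Among the factors that protect ends from resection, RIF1 had the larger differences between stages. RIF1 (chr2:151409883-151508013, 36 exons), the effector that binds phosphorylated 53BP1, had 34.2 and 19.9 CPM in the p53−/− and p53+/+ sums of [B], against 67.8 and 65.5 CPM in [P] and 78.5 and 59.8 CPM in [N]. The [B] cells had a median of 15.6 CPM, and 33 of 36 were below the median of the [N] cells, 51.5 CPM. Of these cells, 26 were below the lowest [N] cell, although 1 [B] cell reached 208 CPM. The log2 fold change was -1.35 against [N] (standard error 0.38, p = 0.00500, adjusted p = 0.112, edgeR) and -1.30 against [P] (standard error 0.38, p = 0.00627, adjusted p = 0.748, edgeR). Adding the cell line as a block, the first of these passed the test (log2 fold change -1.38, adjusted p = 0.0355, edgeR).

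RIF1 was higher in [S], with 70.9 and 37.9 CPM, than in [B] (log2 fold change 1.01, standard error 0.37, p = 0.0228, adjusted p = 1.00, edgeR), and higher in [R], with 65.2 and 55.8 CPM, than in [B] (log2 fold change 1.16, standard error 0.38, p = 0.0116, adjusted p = 0.151, edgeR). Only 2 of 19 [R] cells were below the [B] median. TP53BP1 (chr15:43403061-43510728, 28 exons), which gives RIF1 its docking site, had sums of 16.5 to 19.7 CPM in p53−/− cells and 18.1 to 37.1 CPM in p53+/+ cells, with no p under 0.05 between any stages. In p53−/− cells it was nearly level over the stages, whereas in p53+/+ cells the [B] sum was 18.1, against 37.1 CPM in [N].

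From cell to cell TP53BP1 and RIF1 were nevertheless correlated, with a correlation of 0.66 over all cells and 0.71 within stage and line. It was 0.89 among [P] cells, 0.82 among [B] cells and 0.67 among [S] cells, but -0.24 among [N] cells and -0.18 among [R] cells. It moved with the number of genes detected, which correlated within stage and line at 0.63 with TP53BP1 and at 0.55 with RIF1. The 8 cells with both TP53BP1 under 1 CPM and RIF1 under 5 CPM had between 5911 and 11657 genes detected. Over the 110 cells with at least 10000 genes detected, the correlation was 0.50, and that of the Ku subunits was 0.84. What part the number of detected genes has in the shared level of TP53BP1 and RIF1 was not tested.

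**Figure D3:**
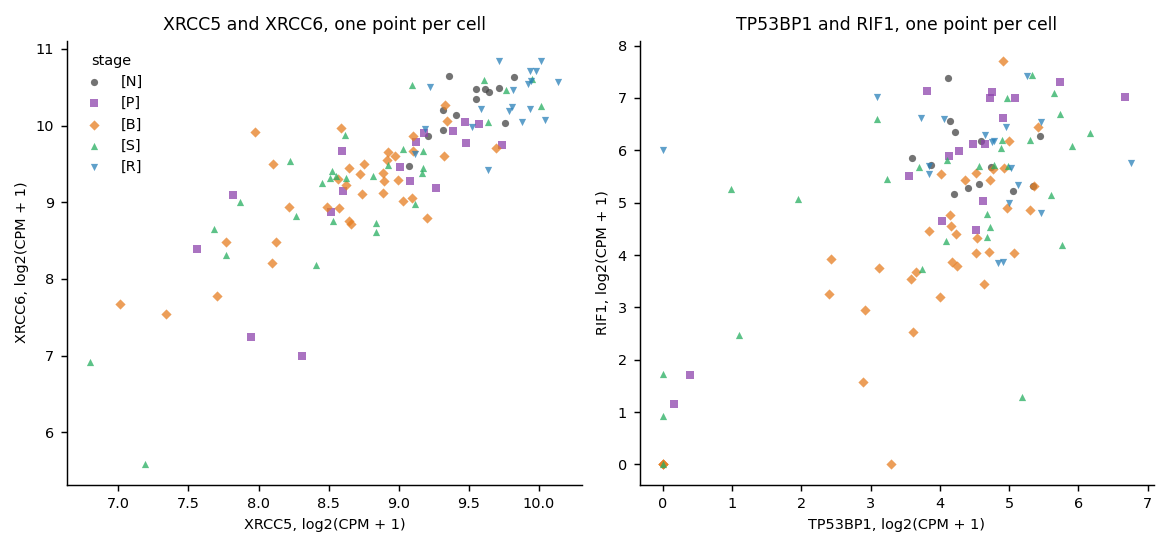
Level per cell, as log2(CPM + 1), of XRCC6 against XRCC5 (left) and of RIF1 against TP53BP1 (right), one point per cell and one symbol per stage. The Ku subunits form a single band over all stages (r = 0.84 over all cells), whereas the lower left of the TP53BP1 and RIF1 panel holds cells of [P], [B] and [S] at or near 0.

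Zero counts were few among the members. Of the 1150 values, 33 were 0, in 19 cells, of which 1 was a [P] cell, 6 were [B] cells, 9 were [S] cells and 3 were [R] cells, with none at [N]. XRCC5, XRCC6, PRKDC and PAXX had counts in every cell. Cells with a member at 0 had a median of 11425 genes detected, against 14991.5 in the other cells, while their median total of 39629788 counts was above the 32943855 of the others. In amplified RNA of 1 cell, a 0 does not separate absence of the transcript from its loss before amplification.

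Promoter sequences are shown for 4 members whose sums took different courses: RIF1 and XRCC4, lower in [B], XRCC6, which was lower in [B] and higher in [R], and PAXX, which did not follow them. No window of XRCC5 or PRKDC was searched. For the other members, 8 of 10, RefSeq sequences on GRCh38.p14 were used, from 250 bases before the gene start to 50 after it. They are written 5′ to 3′ on the gene's strand, which is the plus strand for all 4, with the CCAAT box (CCAAT or ATTGG, either strand) and an E2F motif (TTTGGCGC, TTTCGCGC, TTTCCCGC or TTTGCCGC, either strand) in capitals.
RIF1, chr2:151409652-151409951: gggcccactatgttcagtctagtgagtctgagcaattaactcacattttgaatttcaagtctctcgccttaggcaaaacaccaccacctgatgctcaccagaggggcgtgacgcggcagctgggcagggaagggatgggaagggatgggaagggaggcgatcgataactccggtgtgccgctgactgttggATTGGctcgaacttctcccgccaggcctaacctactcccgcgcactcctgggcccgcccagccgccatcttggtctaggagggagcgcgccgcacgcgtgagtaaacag
XRCC4, chr5:83077297-83077596: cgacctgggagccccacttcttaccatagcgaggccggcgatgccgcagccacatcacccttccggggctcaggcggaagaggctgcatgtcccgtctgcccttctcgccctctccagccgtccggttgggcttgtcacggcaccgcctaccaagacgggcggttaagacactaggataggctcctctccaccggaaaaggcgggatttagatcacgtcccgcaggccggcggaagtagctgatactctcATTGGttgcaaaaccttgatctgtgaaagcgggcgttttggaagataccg
XRCC6, chr22:41621045-41621344: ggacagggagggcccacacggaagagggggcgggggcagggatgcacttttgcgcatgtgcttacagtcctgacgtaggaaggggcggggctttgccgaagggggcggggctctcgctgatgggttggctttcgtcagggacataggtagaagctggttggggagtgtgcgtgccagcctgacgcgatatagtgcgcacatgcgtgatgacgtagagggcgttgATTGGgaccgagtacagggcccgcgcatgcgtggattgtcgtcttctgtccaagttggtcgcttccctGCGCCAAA
PAXX, chr9:136992172-136992471: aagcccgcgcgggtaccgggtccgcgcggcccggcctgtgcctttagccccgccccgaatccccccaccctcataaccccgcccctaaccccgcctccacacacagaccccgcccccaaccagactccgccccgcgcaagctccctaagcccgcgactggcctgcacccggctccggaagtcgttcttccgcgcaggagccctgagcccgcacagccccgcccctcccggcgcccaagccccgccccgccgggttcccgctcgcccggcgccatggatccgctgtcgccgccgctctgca

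The CCAAT box is the site of the factor NF-Y and E2F motifs are the sites of cell cycle factors of the E2F family. The letters of the CCAAT box occurred in 5 of the 8 windows (RIF1, XRCC4, XRCC6, DCLRE1C and TP53BP1), and in 35.7% of 27305 promoters of the same length. An E2F motif occurred in XRCC6 alone of the 8, with its first base at position 293 of 300, and in 3.33% of all promoters. The PAXX window held neither, but had the letters of the GC box (GGGCGG, either strand) at 6 positions, a motif found in 44.6% of all promoters. Matches say only that these letters are present, and no binding was measured.

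No member was called in any of 9 comparisons at an adjusted p under 0.05 with edgeR. The share of all genes called was 0.0201% for [P], 0.658% for [B], 0.0704% for [S] and 0% for [R] when each was set against [N]. It was 0% for both [B] against [P] and [S] against [B], 0.0201% for [R] against [S], 0.281% for [R] against [B] and 0.206% for the lines. At an unadjusted p under 0.05, 6 of 10 members were lower in [B] versus [N] (XRCC5, XRCC6, PRKDC, XRCC4, NHEJ1 and RIF1), where 9.16% of all genes were lower. The same 6 members had both [B] sums below both [N] sums, as did 22.9% of all genes. Their median log2 fold change over all 10 members was -0.73, beside 0.20 for all genes tested, with -0.72 in p53−/− and -0.79 in p53+/+ cells. With DESeq2 on the same sums, XRCC5, XRCC6, XRCC4 and RIF1 were called lower (adjusted p of 0.00502 to 0.0368), as were 5.18% of all genes. With the line as a block in edgeR, 2 members were called, as were 2.2% of all genes called lower, and without the filter on low counts RIF1 was called (adjusted p = 0.0282, edgeR), as were 1.65% of all genes.

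In [P] versus [N], 3 members (XRCC6, XRCC4 and NHEJ1) were lower at an unadjusted p under 0.05, beside 4.9% of all genes, and DESeq2 called XRCC4 and NHEJ1 (adjusted p = 0.0264 and 0.0451), beside 1.26% of all genes. In [B] versus [P], PRKDC and RIF1 were lower at this level, beside 3.23% of all genes. XRCC4 alone was lower in [S] than in [N], beside 5.49% of all genes, and in [R] than in [N], beside 4.13%, and 1 of 10 members is near that background. In [R] versus [B], XRCC5, XRCC6 and RIF1 were higher at an unadjusted p under 0.05, beside 9.03% of all genes, and DESeq2 called these 3 (adjusted p of 0.0176 to 0.0494), beside 4.73% of all genes. In this comparison 7 members had both [R] sums above both [B] sums, beside 22.2% of all genes, and the median over the members was 0.46, beside -0.14 for all genes. The median was 0.29 without the p53+/+ sum of [R].

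**Figure D4:**
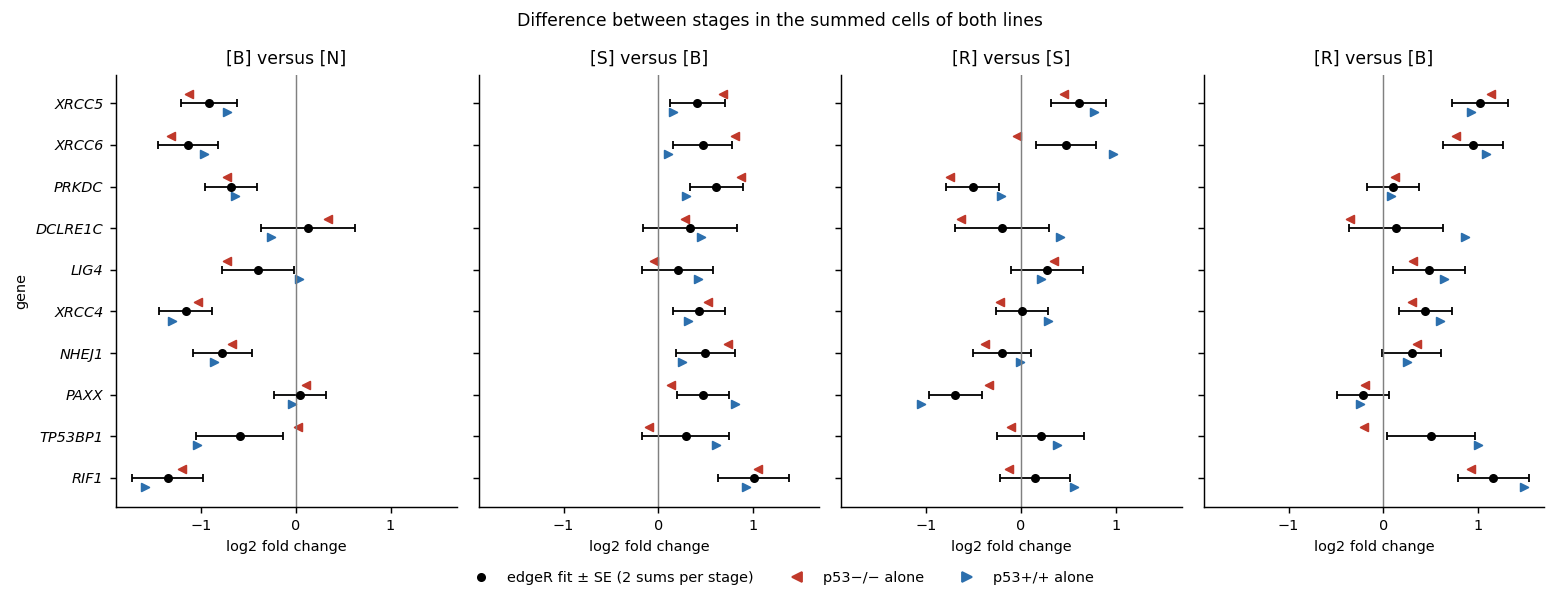
Log2 fold change of each NHEJ gene for [B] over [N], [S] over [B], [R] over [S] and [R] over [B]; black points are the edgeR fit on 2 sums per stage with its standard error, and triangles are each line alone (red p53−/−, blue p53+/+). Most members lie left of 0 in [B] versus [N] and right of 0 in [S] versus [B], while in [R] versus [S] they lie on both sides.

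The progenies [S] were set against the budding cells [B], from which they are shed. All 10 members had a log2 fold change above 0, between 0.20 for LIG4 and 1.01 for RIF1, with a median of 0.45 beside 0.01 for all genes. This direction held for all 10 under library-size scaling but not in sums per name prefix, where XRCC4 (-0.20), DCLRE1C (-0.31) and LIG4 (-0.07) were below 0. In p53−/− cells alone LIG4 (-0.04) and TP53BP1 (-0.09) were below 0. Without the p53+/+ sum of [S], LIG4 was at -0.06 and TP53BP1 at -0.10, and DCLRE1C was at -0.17 without the p53+/+ sum of [B] and at -0.27 without the p53−/− sum of [S]. Both [S] sums were above both [B] sums for 7 members, beside 15.5% of all genes, and RIF1 alone had an unadjusted p under 0.05, beside 2.65% of all genes. The median p53+/+ cell was lower in [S] than in [B] for XRCC5 (375 against 451 CPM) and XRCC6 (512 against 627 CPM). So it was for XRCC4 (25.7 against 36.0 CPM) and NHEJ1 (14.7 against 15.2 CPM), but not for PRKDC, PAXX and RIF1. Among p53+/+ [S] cells, 1 cell held 22.1% of the XRCC6 counts and another 34.9% of those of NHEJ1. The latter cell is labelled [S], but its name carries the letter G, which in all other names marks [B] cells. It was kept in [S] by its label, and a matched pair below also holds it. NHEJ1 is 1 of the 7 members with both [S] sums above both [B] sums, and whether it stays so without this cell was not tested. [S] and [B] cells with the same line and name prefix gave 11 matched pairs. The median over the members was above 0 in 9 of them and above the median of all genes in 9, the exceptions being prefix 1206 in p53−/− (-0.48) and prefix 617 in p53+/+ cells (-0.09). RIF1 was higher in [S] in 9 of the 11 pairs, with a median log2 fold change of 1.31, and TP53BP1 in 9, with a median of 0.40. In a fit with line and prefix as a block, RIF1 had a log2 fold change of 1.14 (p = 0.00591, adjusted p = 0.768, edgeR). The median over the members in that fit was 0.29, with XRCC4 (-0.05) and DCLRE1C (-0.21) below 0. XRCC4 was also below 0 in DESeq2 with cells as replicates (-0.04). Most pairs hold 1 to 3 cells a side.

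The comparison of repopulated cells [R] with progenies [S] addresses how cells that grow again relate to cells that have just budded. The members differed in direction. XRCC5 was higher in both lines, with 788 and 858 CPM in [R], against 576 and 503 CPM in [S] (log2 fold change 0.61, standard error 0.29, p = 0.0635, adjusted p = 0.355, edgeR), and 0 of 19 [R] cells were below the [S] median. XRCC6 had 1418 CPM in [R], against 720.0 CPM in [S], in p53+/+ cells, while p53−/− cells had 960.5 CPM in [R] and 988 CPM in [S]. PRKDC, NHEJ1 and PAXX had both [R] sums below both [S] sums, beside 24.1% of all genes, and XRCC5 had both above, beside 19.9%. PAXX alone had an unadjusted p under 0.05 in the lower direction, beside 9.01% of all genes, and 0 members in the higher direction, beside 6.11%. The median over the members was 0.08, beside -0.08 for all genes. It was -0.17 in p53−/− and 0.34 in p53+/+ cells, and -0.10 without the p53+/+ sum of [R] and -0.19 without that of [S], so that it has no settled sign.

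The HR genes, fixed as a list of 20, had a median of 0.61 in [R] versus [S], and 18 of 20 were above 0. At an unadjusted p under 0.05, 6 of 20 were higher, beside 6.11% of all genes, and none was called. PALB2, which brings BRCA2 to BRCA1, had a log2 fold change of 0.87 (p = 0.0368, adjusted p = 0.296, edgeR), BRCA1 0.16 and BRCA2 -0.05. In [B] versus [N] the median of the HR list was -1.45, with 16 of 20 lower at an unadjusted p under 0.05, beside 9.16% of all genes, and RPA1, a subunit of the single strand binding protein RPA, called (a gene chosen after its value was seen). The median of the NHEJ members in that comparison was -0.73. In [R] versus [B] the HR median was 1.27, with 14 of 20 higher at an unadjusted p under 0.05, beside 9.03% of all genes. That HR and NHEJ genes differ in their changes was not tested.

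Proliferation genes differed in the same direction as both lists for [B] over [N], [S] over [B] and [R] over [B], whereas for [R] over [S] the NHEJ median was near 0. The list of 10 (MKI67, TOP2A, CCNB1, CCNA2, PCNA, MCM2, MCM5, BUB1, CDK1 and TYMS) had medians of -2.12 for [B] over [N], 1.28 for [S] over [B], 0.62 for [R] over [S] and 1.78 for [R] over [B]. Its mean log2(CPM + 1) in the median cell was 8.11 at stage [N], 7.34 at [P], 5.48 at [B], 6.79 at [S] and 7.96 at [R]. Within stage and line it correlated at 0.50 with RIF1, 0.50 with XRCC6, 0.45 with XRCC5 and 0.44 with DCLRE1C, and at 0.04 with LIG4. What share of the members' differences goes with the number of cycling cells was not tested.

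**Figure D5:**
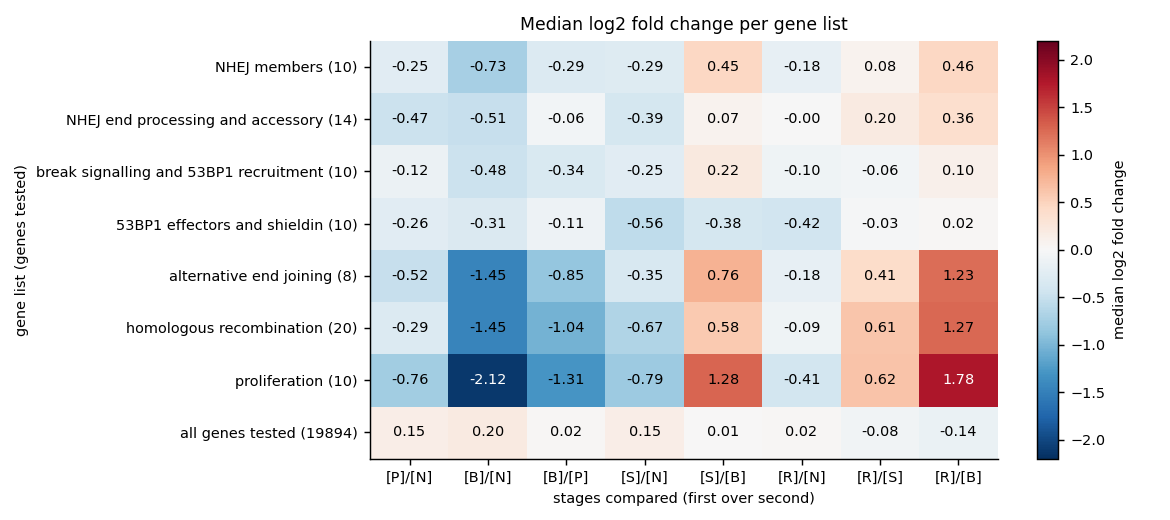
Median log2 fold change of the NHEJ members, of 4 lists of neighbouring end joining factors, of HR, of proliferation genes and of all genes tested, in 8 comparisons of stages (the first stage over the second); the number of genes tested stands in brackets. The NHEJ row runs in the same direction as the HR and proliferation rows in [B] versus [N] (-0.73, -1.45 and -2.12) and in [R] versus [B] (0.46, 1.27 and 1.78), and is near 0 in [R] versus [S] (0.08).

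Of the other genes of end joining, the list of alternative end joining, the backup route that joins ends through short homologies, had the median furthest from 0 of the 4 lists in [B] versus [N], though not in [S] versus [N] or for [R] over [N], where the 53BP1 effectors and shieldin had it. No difference between lists was tested. All 8 of its genes were below 0 in [B] versus [N], with a median of -1.45, and 6 were lower at an unadjusted p under 0.05, beside 9.16% of all genes. FEN1, the flap nuclease, was called there (log2 fold change -1.92, standard error 0.34, adjusted p = 0.0421, edgeR). PARP1, the break sensor, had -1.51 (adjusted p = 0.0730, edgeR) and RHNO1 -1.80 (adjusted p = 0.0851, edgeR). In [R] versus [B] all 8 were higher at an unadjusted p under 0.05, beside 9.03% of all genes, with a median of 1.23 and FEN1 at 1.83 (adjusted p = 0.0552, edgeR), PARP1 at 1.20 and NBN, a break sensor of another list, at 1.14. In [S] versus [B] POLQ, the polymerase of this route, had 1.94 (adjusted p = 1.00, edgeR), FEN1 1.19 and XRCC1 1.28. In [R] versus [S] the smallest p among these lists belonged to NBN (0.94), SHLD2 (1.09) and HMCES (0.72), none called by edgeR.

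The 14 tested genes of end processing and accessory factors had a median of -0.51 in [B] versus [N], with 4 lower and 2 higher at an unadjusted p under 0.05, beside 9.16% of all genes lower and 1865 of the 19894 genes higher. Those of break signalling and 53BP1 recruitment, 10 genes, had a median of -0.48 with 1 lower, which is near that background, and the 10 genes of 53BP1 effectors and shieldin, the complex that blocks resection, had -0.31 with 2 lower. In [P] versus [N] SETMAR had a log2 fold change of -1.24, PARP1 -0.76 and LIG1 -0.59, and none was called by edgeR. Of these 4 lists, only that of alternative end joining held a gene called by edgeR between stages, FEN1 in [B] versus [N].

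Between the lines, 2 members were higher in p53−/− cells at an unadjusted p under 0.05 (DCLRE1C and RIF1), beside 6.91% of all genes, and 1 was lower (TP53BP1), beside 7% of all genes. RIF1 was higher in the p53−/− sum than in the p53+/+ sum at 5 of 5 stages, as were 7.39% of all genes, and its log2 fold change was 0.47 (standard error 0.18, adjusted p = 0.279, edgeR). TP53BP1 was lower in p53−/− sums at 4 of 5 stages, with 16.5 against 36.0 CPM in p53+/+ cells in [R] and 18.6 against 37.1 CPM in [N] (log2 fold change -0.58, standard error 0.23, adjusted p = 0.285, edgeR). The median over the members was 0.04, beside -0.0047 for all genes. DESeq2 on the same sums called DCLRE1C alone, beside 4.1% of all genes called higher, and so did edgeR on sums per name prefix, beside 2.36%. STN1 and TEN1, which act with CTC1 in filling in resected ends, had -0.83 (adjusted p = 0.0836, edgeR) and -0.56 (adjusted p = 0.186, edgeR).

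The study tested its stages with cells as replicates. DESeq2 run that way takes cells of 1 clone as independent, and its p-values measure the spread between cells. Between stages it pooled both lines with the stage as the only term, so this spread includes the line difference. The mix of lines differs between stages (11 p53−/− and 6 p53+/+ cells in [P], 8 and 28 in [B]), so line and stage are partly mixed in these values. With cells as replicates, DESeq2 called XRCC6 and XRCC4 lower in [P] versus [N] (beside 2.33% of all genes). XRCC5, XRCC6 and XRCC4 were called lower in [B] versus [N] (beside 4.74%), and PAXX higher in [S] versus [N] (beside 6.51%). In [R] versus [S] it called XRCC5 and XRCC6 higher (beside 3.58%) and PAXX lower (log2 fold change -1.23, beside 9.22%), and in [R] versus [B] it called XRCC5 and XRCC6 higher (beside 9.34%). Between the lines it called DCLRE1C higher in p53−/− cells (beside 7.25%).

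Over the 10 sums, the pairs of members with the highest correlation of log2 CPM were XRCC5 with XRCC6 (0.93), XRCC4 with NHEJ1 (0.82) and XRCC6 with XRCC4 (0.78). PAXX and DCLRE1C stood apart, with correlations of -0.16 and 0.06 with the mean of the other members, against 0.78 for RIF1 and 0.76 for XRCC6. The genes most like the mean of the members, among 6752 genes with a mean of at least 20 CPM, were SUPT16H (0.96), LRRC40 (0.95), PSIP1 (0.95), HMGB2 (0.94) and DEPDC1B (0.94). SUPT16H is a subunit of the histone chaperone FACT, PSIP1 a chromatin reader and HMGB2 a DNA-bending chromatin protein. These correlations are over 10 sums of which each pair of the same line shares a clone.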

How the data were processed

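Full-length cDNA was amplified from single HCT116 cells and sequenced. No molecular identifiers were used, so amplified reads are not independent molecules. Per the methods, fastp trimmed the reads, HISAT2 2.0 was the aligner (build GRCh38) and StringTie estimated expression. Which tool made the counts is not given in the sources used here. The authors deposited 1 table of raw gene counts with a column for each cell, and these counts are not normalized. No 2 cells were copies (highest correlation of log2(CPM + 1) 0.981).

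Cells sharing stage and line were added up to 10 sums. A gene was tested if it passed filterByExpr (minimum count 10) and had counts in 12 cells or more. The test was that of edgeR 4.0.16 in R 4.3.3 (TMM, robust quasi-likelihood test, 1 mean per stage, Benjamini-Hochberg adjustment over 19894 genes, threshold 0.05), and the lines were compared with the stage as a block. The biological coefficient of variation was 0.751. Same-numbered sums derive from 1 cell line, which pairs them, and deviations of same-line sums correlated at 0.0740 to 0.216 (10 of 10 pairs above 0). The block was no part of the design, so its values stand beside the results they change. The fits were tested on simulated data. Alternatives were DESeq2 1.42.0 on the same sums and with cells as replicates, the line as a block, scaling by library size alone, no filter on low counts, a minimum count of 100, cells thinned to 15435056 counts (12 shallower cells left out), 40 sums per name prefix, leaving out 4 cells that the study's tables of [B] and [S] versus [N] do not hold, and leaving out each sum. Members and lists were chosen with earlier results of these data known. Besides all members, the text names up to 3 genes of the neighbouring end joining lists with the smallest p per comparison, BRCA1, BRCA2 and PALB2, CDKN1A as a check of the lines, and the 5 genes most like the members over the sums. Other genes that this rule names are not reported here. H2AX and TIRR were matched under the names H2AFX and NUDT16L1. Positions are from GENCODE v44 and promoters from RefSeq (GRCh38.p14). Python 3.11.15 with pandas 2.3.3, numpy 2.4.6 and matplotlib 3.10.9 was used for levels and figures.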

Additional observations from a re-analysis of the deposited data

Results flagged for a closer look

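In groups of 6 to 9 cells, 9 of 60 sets of member values held a cell far from the others on the log2(CPM + 1) scale. The cutoff marks about 1 in 20 sets of independent, normally distributed values. These sets share cells and hold zeros, so that rate is no expectation for them. XRCC4 was at 0 CPM in 1 of 9 p53−/− cells of [S], where the next cell had 36.2 CPM, and the same cell had 0.907 CPM of RIF1, where the next had 22.04 CPM. That cell had 8170 genes detected. In the same group, PAXX was at 7.44 CPM in 1 cell and DCLRE1C at 1.11 CPM in another. NHEJ1 was at 0 CPM in 1 of 8 p53−/− cells of [B] and, as the only one of these values at the upper end, at 47.9 CPM in 1 of 6 p53+/+ cells of [N]. LIG4 and TP53BP1 were each at 0 CPM in 1 of 8 p53−/− cells of [R], in different cells. DCLRE1C was at 7.73 CPM in 1 of 7 p53−/− cells of [N].

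LIG4 differed in direction between the lines by more than its standard error in 3 of 80 comparisons of a member between stages. Its log2 fold change in p53−/− cells against [N] was -0.43 for [P], -0.76 for [S] and -0.41 for [R], whereas in p53+/+ cells it was 0.58, 0.46 and 0.67 in the same comparisons. They share the [N] sums, which held 21.04 CPM in p53−/− and 11.9 CPM in p53+/+ cells, and no test of this difference was made, since 1 sum per stage and line leaves no spread for it.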

How the results depend on the processing

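No member was called with edgeR on the 10 sums, and the count of called members was 0 whichever sum was left out. With DESeq2 on the same sums it was 2 for [P] and 4 for [B] set against [N], 3 for [R] set against [B] and 1 for the lines. With cells as replicates it was 2, 3, 2 and 1 there, and also 1 for [S] set against [N] and 3 for [R] set against [S]. The replicate block (the cell line) gave 2 in [B] versus [N] and changed no other call, no filter on low counts gave 1 there, and sums per name prefix gave 1 between the lines. The choice of test thus decides the calls, and with 2 clones the spread between replicates is poorly known.

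The median over the members in [B] versus [N], -0.73, was -0.62 with library size as the only scaling, -0.66 with a minimum count of 100, -0.60 in thinned cells, -0.56 in sums per name prefix, -0.28 with cells as replicates, and -0.92 to -0.66 when 1 sum was left out. With cells as replicates the median against [N] was -0.0735 for [P], 0.11 for [S] (-0.29 in the 10 sums) and -0.0034 for [R], which was -0.0232 with library size alone. In [S] versus [B] it was 0.21 in sums per name prefix. Library size alone moved the median of all genes against [N] by 0.14 for [P], 0.11 for [B] and 0.16 for [R]. It moved it by -0.13 for [S] against [B], by 0.18 for [R] against [S] and by 0.11 for the lines. Of 820 single member values under these alternatives, 39 changed sign, none of them called and none further than 0.43 from 0 in the 10 sums, as did 45 of 420 when 1 sum was left out, none further than 0.59 from 0. The causes were not tested.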
